A study of Homo with 4 samples.

Results

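The genes described here build, store and break down triglyceride in lipid droplets, or make and remodel the phospholipids of membranes. A list of 42 such genes was taken by symbol, each symbol was matched to a gene ID by its GRCh38 position, and the estimated counts of all transcripts of a gene were summed. All 42 were matched, out of 20263 genes in the count table. They were divided by step into 8 acyltransferases, 5 phosphatidate phosphatases and DGAT enzymes, 6 genes of lipolysis, 7 of the droplet coat and droplet formation, 6 of the CDP-choline and CDP-ethanolamine pathway, 4 of phosphatidylserine synthesis, decarboxylation and methylation, and 6 of acyl chain release and remodelling.

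The libraries were mRNA-seq of H1299, a long-established line from a human non-small cell lung carcinoma that lacks p53, kept in RPMI-1640 medium with fetal bovine serum. Every library came from cells infected with lentivirus: the control cells (shCtrl, genotype labelled WT) carried a control short hairpin RNA, and the knockdown cells (shIGF2BP3) a hairpin against IGF2BP3, an RNA-binding protein that binds mRNAs and affects their stability. There were 2 libraries in each group. The deposited files number the libraries labelled shIGF2BP3 replicates 1 and 2, called libraries 1 and 2 here, as 2 and 3, and the shCtrl libraries as 1 and 2. The sources used here do not state whether the 2 shIGF2BP3 libraries carry the same hairpin or different ones, nor how the replicate cultures were separated, so the p-values measure only the spread between these libraries.

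Triglyceride is made on the glycerol phosphate backbone. Acyltransferases add a first and a second fatty acid, a phosphatase (lipin) removes the phosphate to give diacylglycerol, and a DGAT enzyme adds the last fatty acid. Diacylglycerol is a branch point, since the CDP-choline and CDP-ethanolamine pathway uses it to make phosphatidylcholine and phosphatidylethanolamine. Stored triglyceride lies in droplets coated with perilipins, and lipases release its fatty acids one after another.

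The libraries held between 29709686 and 34817513 estimated counts, and mitochondrially encoded genes took 9.11% to 17.0% of them, most in shIGF2BP3 library 2. IGF2BP3 itself (ENSG00000136231, chr7:23310209-23470467, minus strand) stood at 41.1 and 32.9 CPM in the shCtrl libraries and at 26.4 and 24.8 CPM in the shIGF2BP3 libraries, where CPM is a gene's count scaled by its library's size with TMM factors. The knockdown libraries were both below the control libraries, at 69.1% of the control level (log2 fold change -0.53, SE 0.17, Benjamini-Hochberg adjusted p = 0.472, edgeR's quasi-likelihood fit). This fold change is under 1.5, the size needed for the calls below. IGF2BP3 overlaps MALSU1 on the opposite strand. FASN, fatty acid synthase, stood at 306 and 335 CPM in shCtrl and at 279 and 247 CPM in shIGF2BP3 (log2 fold change -0.29, SE 0.14, Benjamini-Hochberg adjusted p = 0.511, edgeR's quasi-likelihood fit). The labels call the cells epithelial. KRT8 and KRT18 stood at 699 CPM or more in every library, whereas EPCAM, KRT19 and CDH1 stayed under 1 CPM, and VIM, a mesenchymal marker, stood at 4338 to 7100 CPM. None of the 4 adipocyte, 2 hepatocyte, 3 endothelial or 4 alveolar type 2 markers reached 1 CPM in any library, with ADIPOQ, LEP, SFTPC and SFTPA1 at 0, and of the 4 leukocyte markers PTPRC and CD3E were at 0 and CD68 stood at 44.4 to 49.9 CPM. In bulk RNA a smaller number of cells of a kind and less RNA per cell cannot be told apart.

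Calls needed a fold change of 1.5 or more and a p, before adjustment, no higher than 0.05 in edgeR's quasi-likelihood test, fitted over all 13379 genes that passed the filter on low counts. Of the 42 members, 41 passed that filter, and CIDEC had no count in any library. By this rule 3 members were called: G0S2 was higher in shIGF2BP3, and AGPAT2 and MGLL were lower. That is 7.32% of the members tested, beside 5.32% of all genes tested, of which 2.54% were called higher and 2.78% lower. Another 3, AGPAT1, PNPLA2 and LPCAT3, were lower in shIGF2BP3 with p of at most 0.05 and a fold change under 1.5, which made 6 members (14.6%, beside 10.5% of all genes). No member passed an adjusted p of 0.05, and the smallest adjusted p among the members was 0.472 (edgeR's quasi-likelihood test, Benjamini-Hochberg method). Among all genes 0 passed it in this test, 155 (1.3%) by DESeq2, 101 (0.755%) by edgeR's exact test and 17 in the quasi-likelihood test with no filter on low counts, and no member passed in any of them.

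The list as a whole was divided in direction. Of the 41 members tested, 21 had a fold change below 1 and 20 above 1, and the median log2 fold change was -0.01, beside -0.00 over all genes tested. With library totals in place of TMM the division was 25 below and 16 above. The libraries of the groups did not overlap in 18 members (43.9%), 10 lower and 8 higher in shIGF2BP3, beside 46.8% of all genes (23.5% lower and 23.3% higher), so the members' share was near that of any gene. Of the 42 members, 29 overlapped no other expressed gene, 12 overlapped one on the opposite strand and 3 one on the same strand, some of them both. The same-strand pairs were BSCL2 with ENSG00000234857, PCYT1A with ENSG00000272741 and LPCAT2 with CAPNS2. Overlap was judged from whole gene spans, introns included. Whether such a pair shares exons, where reads could not be told apart, was not examined. In 24 members (58.5%) the group levels were within 1.2-fold of each other, beside 57.3% of all genes.

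**Figure D1:**
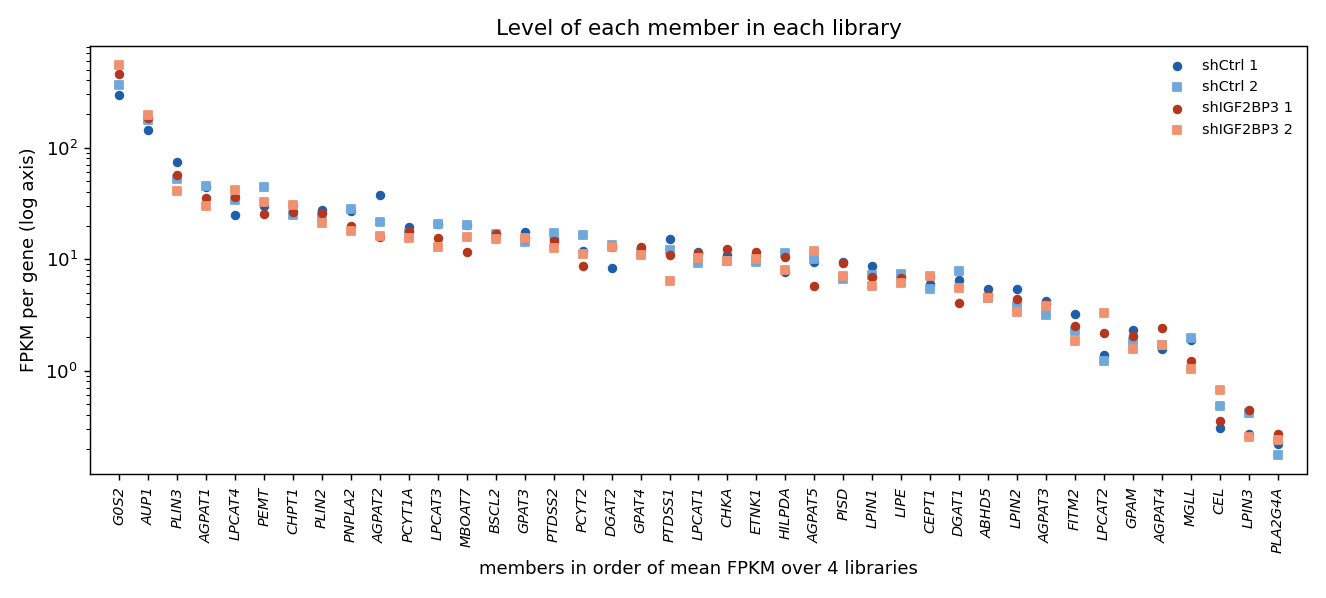
Level in each library of the members with counts, in FPKM on a log axis, ordered by the mean over 4 libraries. The shCtrl and shIGF2BP3 libraries are in separate colours. G0S2 and AUP1 stand above 100 FPKM in every library. CIDEC, at 0 in all libraries, is not drawn.

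Levels can be compared between genes only per length of transcript, so they are given as FPKM (fragments per kilobase of transcript, scaled to library size), summed over the transcripts of each gene. The members spanned a wide range. G0S2 had the highest mean over the 4 libraries, 416.7 FPKM, and AUP1 was next at 175.2 FPKM, after which PLIN3 followed at 56.0 FPKM and AGPAT1 at 38.5 FPKM. The lowest library of G0S2, 296 FPKM, was above the highest of AUP1, 197 FPKM, and the lowest of AUP1, 143 FPKM, was above the highest of PLIN3, 73.7 FPKM. The next neighbours in the order overlapped, with PLIN3 between 41.1 and 73.7 FPKM and AGPAT1 between 29.7 and 44.9 FPKM. Altogether 23 members had a mean of at least 10 FPKM and 38 of at least 1 FPKM. The 4 members under 1 FPKM were CEL (0.455), LPIN3 (0.348), PLA2G4A (0.226) and CIDEC (0).

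The glycerol phosphate acyltransferases among the members, which add the first fatty acid, differed little between the groups. GPAT4, an endoplasmic reticulum enzyme, stood at 76.4 and 83.8 CPM in shCtrl and at 82.9 and 83.4 CPM in shIGF2BP3. GPAT3, of the same compartment, stood at 50.4 and 44.8 against 46.8 and 51.1 CPM, and the mitochondrial enzyme GPAM at 16.1 and 13.9 against 15.04 and 12.4 CPM. The groups overlapped in all of them, and the log2 fold changes lay between -0.13 (GPAM) and 0.05 (GPAT4). GPAT2, which is not a member, stood at 60.3 and 68.6 CPM in shCtrl and at 50.4 and 49.7 CPM in shIGF2BP3, without overlap. Its log2 fold change was -0.36 (SE 0.14, Benjamini-Hochberg adjusted p = 0.472, edgeR's quasi-likelihood fit).

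The next enzymes, the AGPATs, turn lysophosphatidic acid into phosphatidic acid, and AGPAT2 is the one whose loss causes a form of congenital lipodystrophy. AGPAT2 (ENSG00000169692, chr9:136673143-136687423, minus strand) stood at 60.6 and 36.3 CPM in shCtrl and at 26.1 and 29.0 CPM in shIGF2BP3. Both knockdown libraries lay below both control libraries, and the control libraries were 1.67-fold apart. The means were 48.4 ± 17.1 CPM and 27.5 ± 2.08 CPM (SD, n = 2), or 56.8% of the control level (log2 fold change -0.82, SE 0.27, Benjamini-Hochberg adjusted p = 0.472, edgeR's quasi-likelihood fit). Without shCtrl library 1 the log2 fold change was -0.40, without shIGF2BP3 library 1 it was -0.73, and AGPAT2 was called in neither.

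AGPAT1 (ENSG00000204310, chr6:32168212-32178096, minus strand), which catalyses the same reaction and was the acyltransferase with the highest level, stood at 106 and 120 CPM in shCtrl and at 89.99 and 82.7 CPM in shIGF2BP3. The groups did not overlap, and the difference was smaller than for AGPAT2, at 76.3% of control (113 ± 9.71 against 86.4 ± 5.14 CPM, SD, n = 2; log2 fold change -0.39, SE 0.14, Benjamini-Hochberg adjusted p = 0.472, edgeR's quasi-likelihood fit). AGPAT1 overlaps EGFL8 on the opposite strand, and whether the counting used strand is not given in the sources used here. The other 3 members of this family overlapped between the groups. AGPAT3 stood at 22.2 and 19.7 against 26.3 and 21.4 CPM, and AGPAT4 at 9.12 and 13.05 against 15.4 and 11.9 CPM. AGPAT5, assigned to mitochondria and the endoplasmic reticulum, stood at 34.6 and 40.9 CPM in shCtrl and at 17.1 and 53.7 CPM in shIGF2BP3, so the knockdown libraries lay on either side of the controls and were 3.14-fold apart, the widest gap between replicates among the members. AGPAT2 made up 29.3% and 19.6% of the summed FPKM of the 8 acyltransferases in shCtrl and 16.8% and 17.6% in shIGF2BP3.

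No member was called among the phosphatidate phosphatases and DGAT enzymes. LPIN1, the lipin with the highest level, stood at 50.8 and 46.3 CPM in shCtrl and at 42.1 and 38.8 CPM in shIGF2BP3, without overlap (log2 fold change -0.26, SE 0.14, Benjamini-Hochberg adjusted p = 0.523, edgeR's quasi-likelihood fit). LPIN2 stood at 36.7 and 27.7 against 30.3 and 26.4 CPM, and LPIN3 stayed between 1.30 and 2.24 CPM in the 4 libraries. The groups overlapped in both.

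The 2 DGAT enzymes, which share a reaction but not a sequence family, differed in opposite directions, neither past the p threshold. DGAT1 stood at 26.3 and 34.1 CPM in shCtrl and at 17.3 and 25.6 CPM in shIGF2BP3, where the groups were close but did not overlap (log2 fold change -0.50, SE 0.25, Benjamini-Hochberg adjusted p = 0.515, edgeR's quasi-likelihood fit). DGAT2, the DGAT that acts at droplets and mostly on newly made fatty acids, had the highest mean FPKM in this step. It stood at 20.6 and 39.8 CPM in shCtrl and at 35.0 and 39.4 CPM in shIGF2BP3. Only shCtrl library 1 was low, so the groups overlapped (30.2 ± 13.6 against 37.2 ± 3.11 CPM, SD, n = 2; log2 fold change 0.30, SE 0.32, Benjamini-Hochberg adjusted p = 0.725, edgeR's quasi-likelihood fit), and without that library the log2 fold change was -0.09. Per length, DGAT1 stood at 0.775 and 0.586 of DGAT2 in the shCtrl libraries and at 0.316 and 0.429 of it in the shIGF2BP3 libraries. This ratio was chosen after the values were seen and was not tested. DGAT1 overlaps HSF1 on the opposite strand.

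Lipolysis held 2 of the 3 called members, and 3 of its 6 genes reached the p threshold, beside 5.32% of all genes called and 10.5% at that p. PNPLA2 encodes ATGL, the lipase that takes the first fatty acid from triglyceride, LIPE (hormone-sensitive lipase) acts mainly on diacylglycerol, and MGLL (monoglyceride lipase) takes the last fatty acid. ABHD5 activates ATGL and G0S2 inhibits it. In shIGF2BP3 the level of G0S2 was higher and those of PNPLA2 and MGLL were lower, while LIPE, ABHD5 and CEL overlapped between the groups in CPM. HILPDA, another ATGL inhibitor, placed here with the droplet proteins, overlapped too (log2 fold change -0.17).

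G0S2 (ENSG00000123689, chr1:209675420-209676388, plus strand) stood at 279 and 384 CPM in shCtrl and at 459 and 593 CPM in shIGF2BP3. All knockdown values were above all control values, and replicates of either group were well apart. The means were 331 ± 73.7 and 526 ± 94.4 CPM (SD, n = 2), a 1.59-fold higher level (log2 fold change 0.67, SE 0.22, Benjamini-Hochberg adjusted p = 0.472, edgeR's quasi-likelihood fit). Without shCtrl library 1 the log2 fold change was 0.46, without shIGF2BP3 library 2 it was 0.47, and in neither case was G0S2 called.

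PNPLA2 (ENSG00000177666, chr11:818902-825573, plus strand) stood at 71.4 and 82.2 CPM in shCtrl and at 55.7 and 54.5 CPM in shIGF2BP3. The knockdown libraries lay close together and below both controls. The means were 76.8 ± 7.64 and 55.1 ± 0.853 CPM (SD, n = 2), or 71.8% of control (log2 fold change -0.48, SE 0.14, Benjamini-Hochberg adjusted p = 0.472, edgeR's quasi-likelihood fit), under the fold change needed for a call. G0S2 and PNPLA2 have a single transcript each in the count table and no expressed gene overlaps either, so their values do not depend on how reads were shared out between transcripts.

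MGLL (ENSG00000074416, chr3:127689062-127823250, minus strand) was the member with the lowest fold change. It stood at 9.42 and 11.7 CPM in shCtrl and at 6.49 and 4.54 CPM in shIGF2BP3, with no overlap. The means were 10.6 ± 1.61 and 5.51 ± 1.38 CPM (SD, n = 2), or 52.4% of control (log2 fold change -0.93, SE 0.26, Benjamini-Hochberg adjusted p = 0.472, edgeR's quasi-likelihood fit). The log2 fold change was -0.77 without shCtrl library 2 and -0.70 without shIGF2BP3 library 2, and MGLL was called in neither. With limma on log2(FPKM + 1), a scale that understates the change of low genes, it was -0.46.

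**Figure D2:**
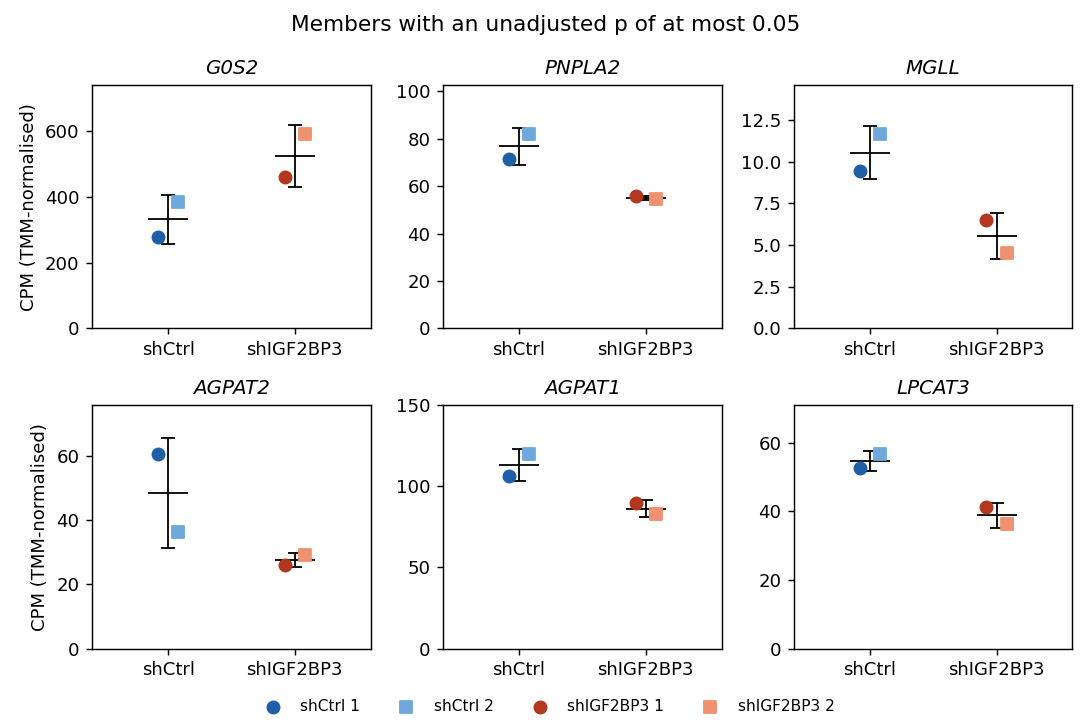
CPM in each of the 4 libraries for the 6 members at p of at most 0.05; each point is a library and the horizontal line is the mean of its group. G0S2 is higher in both shIGF2BP3 libraries than in both controls, and AGPAT1, AGPAT2, PNPLA2, MGLL and LPCAT3 are lower in both.

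LIPE stood at 20.4 and 24.7 CPM in shCtrl and at 20.9 and 19.1 CPM in shIGF2BP3, and ABHD5 stayed between 8.41 and 9.51 CPM in the 4 libraries. The FPKM of LIPE did not overlap, at 7.07 and 7.31 in shCtrl and 6.73 and 6.09 in shIGF2BP3. CEL, the bile salt-dependent lipase of the pancreas, was low throughout at 0.798 and 1.42 CPM in shCtrl and 0.985 and 2.03 CPM in shIGF2BP3, and its groups overlapped (log2 fold change 0.44, SE 0.49, Benjamini-Hochberg adjusted p = 0.736, edgeR's quasi-likelihood fit); without shIGF2BP3 library 2 its log2 fold change was -0.16. Within each library, the FPKM of G0S2 was 10.95 and 13.06 times that of PNPLA2 in shCtrl and 23.1 and 30.4 times in shIGF2BP3. This pair was chosen after the values were seen, so the ratio is a description without a test, and it joins values already given. G0S2 took 87.7% to 94.7% of the summed FPKM of the step in every library.

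Among the droplet proteins, no member was called or reached the p threshold, and 5 of the 6 tested were within 1.2-fold between the groups. PLIN2, the perilipin found on droplets of most cells, stood at 59.4 and 56.9 CPM in shCtrl and at 57.8 and 51.4 CPM in shIGF2BP3 (log2 fold change -0.09, SE 0.14, Benjamini-Hochberg adjusted p = 0.804, edgeR's quasi-likelihood fit). PLIN3, a perilipin that moves from the cytosol to new droplets, stood at 137 and 123 against 135 and 108 CPM (log2 fold change -0.10, SE 0.16). The groups overlapped in both perilipins.

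The proteins that form droplets at the endoplasmic reticulum gave similar results. BSCL2 (seipin) stood at 26.5 and 27.0 against 27.4 and 27.7 CPM, a separation of the groups by less than 1 CPM that was not there in FPKM. FITM2, which helps droplets bud, stood at 16.3 and 12.6 against 13.5 and 10.7 CPM. HILPDA, a hypoxia-induced inhibitor of ATGL on droplets, stood at 11.2 and 12.4 against 11.2 and 9.77 CPM. AUP1, a droplet protein that also takes part in protein degradation at the endoplasmic reticulum and whose gene overlaps HTRA2 on the opposite strand, had the highest level of the step and stood at 257 and 356 CPM in shCtrl and at 347 and 410 CPM in shIGF2BP3; shCtrl library 1 was the low one and the groups overlapped (306 ± 70.4 against 379 ± 44.3 CPM, SD, n = 2; log2 fold change 0.30, SE 0.20, Benjamini-Hochberg adjusted p = 0.582, edgeR's quasi-likelihood fit). The FPKM of AUP1 did not overlap, at 143 and 178 in shCtrl and 183 and 197 in shIGF2BP3. CIDEC, which fuses droplets in adipocytes, had 0 counts in all libraries, where the 3 counts that a count of 0 allows are 0.0862 to 0.101 CPM before TMM scaling. This floor covers counting error only.

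**Figure D3:**
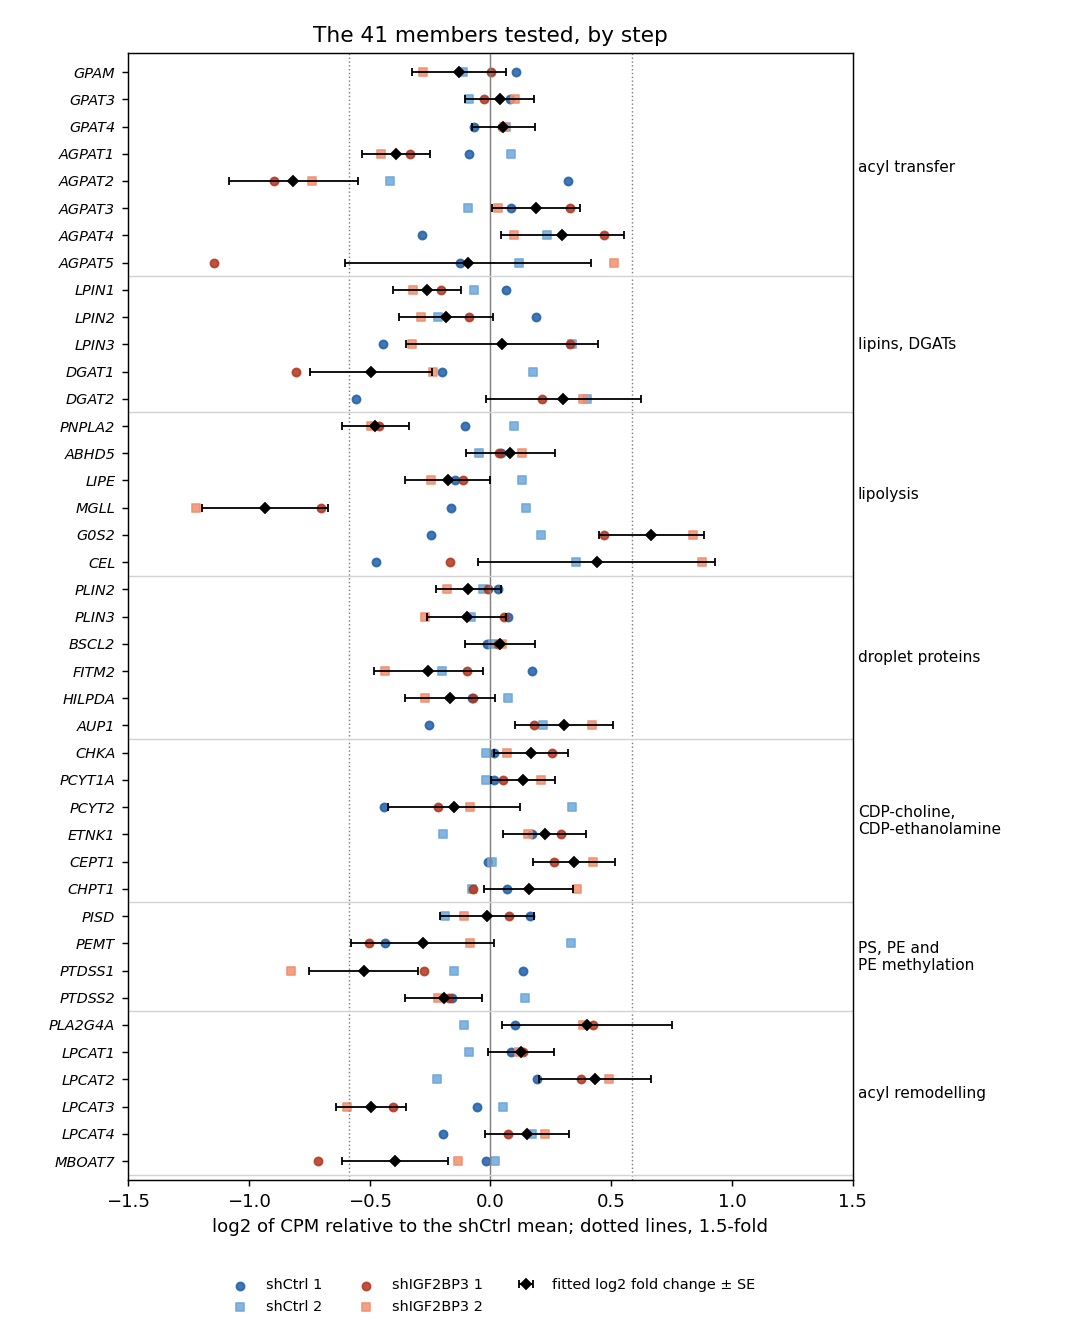
Log2 fold change (shIGF2BP3 over shCtrl) of the 41 members tested, grouped by step, as black diamonds with bars of 1 standard error from edgeR's quasi-likelihood fit; coloured points are the 4 libraries, as log2 of CPM relative to the shCtrl mean, and dotted lines mark 1.5-fold. The fitted values run from -0.93 (MGLL) to 0.67 (G0S2), most lie close to 0, and the 4 genes of phosphatidylserine synthesis, decarboxylation and methylation are all below 0 on this scale, though not in FPKM.

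In the CDP-choline and CDP-ethanolamine pathway, 5 of 6 members had a fold change above 1, the median log2 fold change was 0.16, and none was called or reached the p threshold. In FPKM, 4 of the 6 were above 1. CHKA, the kinase that commits choline to the pathway, stood at 28.03 and 27.4 CPM in shCtrl and at 33.1 and 29.1 CPM in shIGF2BP3. PCYT1A, the rate-limiting enzyme of phosphatidylcholine synthesis, stood at 74.0 and 72.3 against 75.9 and 84.6 CPM, and CEPT1, which completes both lipids, at 12.9 and 13.02 against 15.5 and 17.4 CPM. In CPM the groups did not overlap in these 3 genes, beside 46.8% of all genes, with the largest difference in CEPT1 (log2 fold change 0.34, SE 0.17, Benjamini-Hochberg adjusted p = 0.511, edgeR's quasi-likelihood fit), which overlaps DRAM2 on the opposite strand. In FPKM the groups overlapped in CHKA (10.96 and 9.54 against 12.2 and 9.53) and in PCYT1A (19.4 and 17.2 against 17.9 and 15.6), where the mean of PCYT1A was the lower one in shIGF2BP3.

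CHPT1, the choline phosphotransferase and the highest of the step by mean FPKM, stood at 66.2 and 59.9 CPM in shCtrl and at 60.0 and 80.8 CPM in shIGF2BP3. Only shIGF2BP3 library 2 was above the controls, the groups overlapped (63.1 ± 4.46 against 70.4 ± 14.7 CPM, SD, n = 2; log2 fold change 0.16, SE 0.18, Benjamini-Hochberg adjusted p = 0.747, edgeR's quasi-likelihood fit), and without that library the log2 fold change was -0.07. On the ethanolamine side ETNK1, the first kinase, stood at 77.1 and 59.9 against 83.8 and 76.3 CPM. PCYT2, the next enzyme, stood at 30.0 and 51.5 against 35.1 and 38.5 CPM, with both knockdown libraries between the controls. Its FPKM was lower in both knockdown libraries than in both controls, at 11.8 and 16.6 against 8.65 and 11.1.

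All 4 genes of phosphatidylserine synthesis, decarboxylation and methylation had a fold change below 1 (median log2 fold change -0.24), and none reached the p threshold. In FPKM 3 of the 4 were below 1, and with only the highest transcript of each gene 2 of the 4. PTDSS1, which makes phosphatidylserine from phosphatidylcholine, stood at 73.3 and 60.0 CPM in shCtrl and at 55.1 and 37.6 CPM in shIGF2BP3, without overlap (66.6 ± 9.35 against 46.3 ± 12.4 CPM, SD, n = 2; log2 fold change -0.52, SE 0.23, Benjamini-Hochberg adjusted p = 0.48, edgeR's quasi-likelihood fit). PTDSS2, which uses phosphatidylethanolamine, stood at 40.4 and 49.8 against 40.1 and 38.8 CPM, where the groups nearly touched. PEMT, the methyltransferase that turns phosphatidylethanolamine into phosphatidylcholine, had the highest mean FPKM of the step and stood at 30.3 and 51.6 against 28.9 and 38.6 CPM. Its groups overlapped (40.9 ± 15.1 against 33.7 ± 6.82 CPM, SD, n = 2; log2 fold change -0.28, SE 0.30, Benjamini-Hochberg adjusted p = 0.723, edgeR's quasi-likelihood fit), and without shCtrl library 2 the log2 fold change was 0.16. PISD, the mitochondrial decarboxylase, stood at 21.5 and 16.8 against 20.2 and 17.8 CPM (log2 fold change -0.01).

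Remodelling enzymes exchange the acyl chains of finished phospholipids. LPCAT3 (ENSG00000111684, chr12:6976186-7018510, minus strand), which inserts polyunsaturated chains into phosphatidylcholine and phosphatidylethanolamine, stood at 52.6 and 56.7 CPM in shCtrl and at 41.3 and 36.3 CPM in shIGF2BP3. Replicates lay close together and the groups apart. The means were 54.7 ± 2.91 and 38.8 ± 3.59 CPM (SD, n = 2), or 71.0% of control (log2 fold change -0.49, SE 0.14, Benjamini-Hochberg adjusted p = 0.472, edgeR's quasi-likelihood fit), under the fold change needed for a call. LPCAT3 overlaps C1S and EMG1 on the opposite strand.

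MBOAT7, which puts arachidonic acid into phosphatidylinositol, stood at 50.3 and 51.6 CPM in shCtrl and at 31.0 and 46.5 CPM in shIGF2BP3. The groups did not overlap, and shIGF2BP3 library 1 was the one well below the controls (log2 fold change -0.39, SE 0.22, Benjamini-Hochberg adjusted p = 0.527, edgeR's quasi-likelihood fit). The other LPCAT genes had fold changes above 1. LPCAT1, the enzyme of saturated phosphatidylcholine in surfactant, stood at 50.0 and 44.3 against 51.8 and 51.1 CPM, and LPCAT2, which also makes platelet-activating factor, at 6.41 and 4.81 against 7.27 and 7.88 CPM (log2 fold change 0.43, SE 0.23, Benjamini-Hochberg adjusted p = 0.521, edgeR's quasi-likelihood fit). LPCAT2 overlaps CAPNS2 on the same strand. LPCAT4 had the highest mean FPKM of the step. It stood at 42.7 and 55.0 against 51.5 and 57.2 CPM and overlapped between the groups (48.9 ± 8.74 against 54.3 ± 4.05 CPM, SD, n = 2). Its log2 fold change was 0.15 (SE 0.17, Benjamini-Hochberg adjusted p = 0.742, edgeR's quasi-likelihood fit), and -0.02 without shCtrl library 1. Its FPKM did not overlap, at 25.0 and 34.2 against 36.2 and 42.1, and limma on log2(FPKM + 1) gave a log2 fold change of 0.40.

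PLA2G4A, the cytosolic phospholipase that releases arachidonic acid, stayed under 1 CPM in every library. Per length, LPCAT3 stood at 1.80 and 2.24 times LPCAT1 in shCtrl and at 1.36 and 1.26 times in shIGF2BP3, another ratio chosen after the values were seen and not tested. LPCAT3 made up 26.3% and 24.1% of the summed FPKM of the remodelling genes in shCtrl and 20.1% and 15.3% in shIGF2BP3.

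Another 84 genes of glycerolipid and phospholipid metabolism and its regulation were listed as a background for the members, of which 82 were matched and 69 passed the filter. Of these, 4 were called (5.80%), 2 in each direction, and 8 had p of at most 0.05 (11.6%), 4 in each direction. Both shares were near those of all genes, 5.32% and 10.5%. FABP5, a fatty acid carrier, stood at 278 and 312 CPM in shCtrl and at 421 and 558 CPM in shIGF2BP3, both knockdown values above both controls (log2 fold change 0.73, SE 0.18, Benjamini-Hochberg adjusted p = 0.472, edgeR's quasi-likelihood fit). By DESeq2 its adjusted p was 0.0351, and by edgeR's exact test 0.123. FABP5 has near-identical pseudogene copies, so its count is uncertain. HSD17B13, a droplet protein, was low throughout, at 0.186 and 0.177 against 0.435 and 0.726 CPM (log2 fold change 1.64, SE 0.55, Benjamini-Hochberg adjusted p = 0.472, edgeR's quasi-likelihood fit).

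The lower 2 were phospholipases. PLA2G15, of the lysosome, stood at 3.67 and 6.32 against 2.93 and 2.22 CPM (log2 fold change -0.95, SE 0.34, Benjamini-Hochberg adjusted p = 0.472, edgeR's quasi-likelihood fit). DDHD2, which also hydrolyses triglyceride in neurons, stood at 17.98 and 28.9 against 15.4 and 11.9 CPM (log2 fold change -0.77, SE 0.28, Benjamini-Hochberg adjusted p = 0.472, edgeR's quasi-likelihood fit), yet in FPKM its groups overlapped, at 6.84 and 6.85 against 7.83 and 5.20. The remaining 4 had fold changes under 1.5: GPAT2 and SREBF1, the transcription factor of lipid synthesis genes, were lower, and HSD17B11 and MBOAT2 higher. SREBF1 stood at 283 and 311 CPM in shCtrl and at 227 and 210 CPM in shIGF2BP3 (log2 fold change -0.44, Benjamini-Hochberg adjusted p = 0.472, edgeR's quasi-likelihood fit).

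Each of the 4 calls was lost in some fits without 1 library. Without shCtrl library 1 the log2 fold change was 0.65 for FABP5 and 1.68 for HSD17B13, neither called. Without shCtrl library 2 it was 1.61 for HSD17B13, -0.51 for PLA2G15 and -0.39 for DDHD2, none called. Without shIGF2BP3 library 2 none of the 4 was called, at 0.51 for FABP5, 1.24 for HSD17B13, -0.77 for PLA2G15 and -0.60 for DDHD2.

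The transcripts of the members were also tested one by one, among 37927 transcripts of all genes. The members had 216 transcripts in the count table, of which 109 passed the filter. By the same rule 7 were called (6.42%, beside 6.3% of all transcripts), 2 higher and 5 lower. Their smallest adjusted p was 0.419 (edgeR's quasi-likelihood test, Benjamini-Hochberg method), and 0 transcripts of any gene passed 0.05. Before adjustment 8 of the 109 member transcripts had p of at most 0.05, beside 6.57% of all transcripts.

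The smallest p was in PISD, whose gene sum had a log2 fold change of -0.01 and which overlaps SFI1 on the opposite strand. Its transcript ENST00000397500 had 3 and 2 estimated counts in the control libraries and 226 and 195 in the knockdown libraries, or 0.372% and 0.351% against 32.4% and 39.9% of the gene's count. The groups were far apart for this transcript. Another PISD transcript, ENST00000382151, had 313 and 23 counts in shCtrl and 1 and 0 in shIGF2BP3, and ENST00000437808 took 68.1% of the count in shCtrl library 2 with 1 count in shCtrl library 1 and 0 in both shIGF2BP3 libraries. Replicates of the control group thus differed from each other in the make-up of PISD too.

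In PLIN3, ENST00000585479 had 1394 and 743 counts in the control libraries and 277 and 108 in the knockdown libraries. The transcript that dominated 3 of the libraries, ENST00000592528, took 76.9%, 90.3% and 92.2% of the PLIN3 count there and 4.96% in shCtrl library 1, where ENST00000589163 took 53.0% and had 0 counts elsewhere. PEMT transcript ENST00000395781 had 191 and 363 counts in shCtrl and 32 and 27 in shIGF2BP3, and BSCL2 transcript ENST00000448568 had 55 and 132 against 9 and 11. LPCAT3 transcript ENST00000543794 had 15 and 11 counts in shCtrl and 0 in both shIGF2BP3 libraries, under 1% of its gene. The called transcript of G0S2 is the whole gene.

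**Figure D4:**
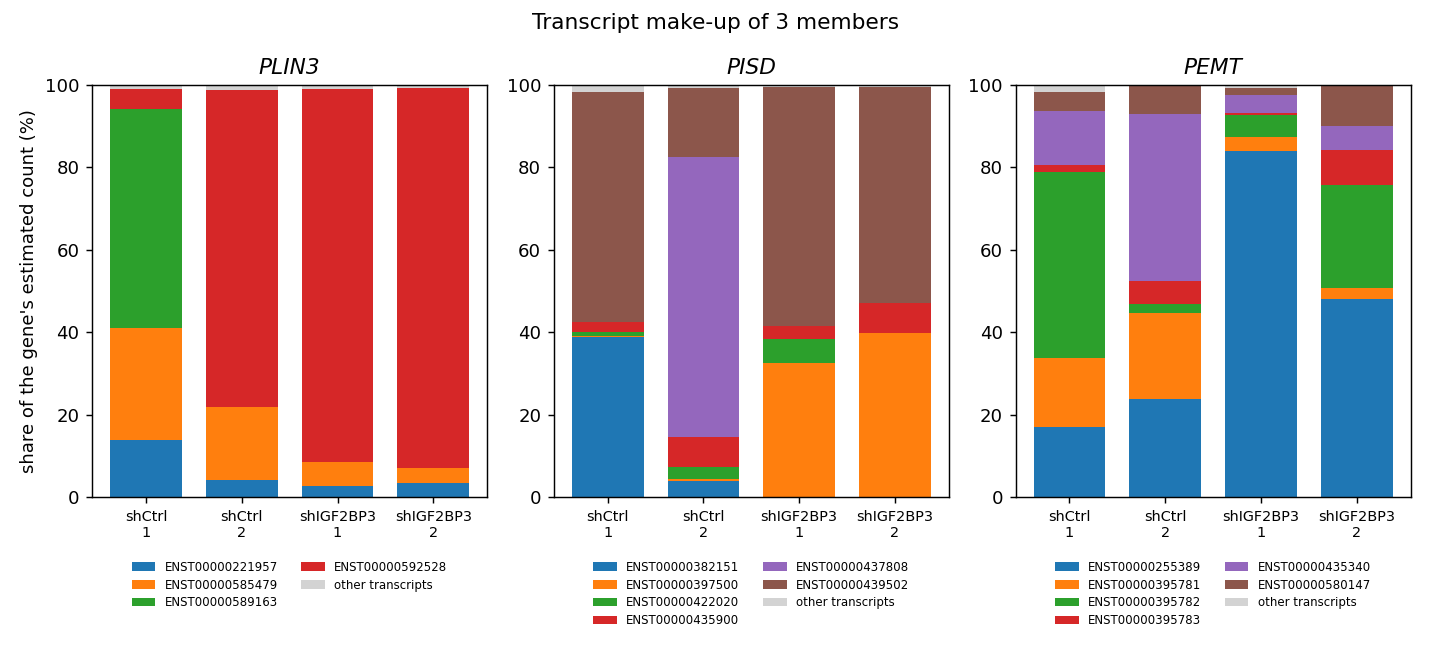
Share of the estimated count of PLIN3, PISD and PEMT taken by each transcript in each library, as stacked bars that reach 100%; transcripts under 5% in every library are pooled in grey. The make-up differs between shCtrl 1 and shCtrl 2 in all 3 genes, for example 4.96% against 76.9% for ENST00000592528 of PLIN3.

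Such gaps between replicates occurred in other members too. The share of the gene's leading transcript differed by more than 20 percentage points between the 2 shCtrl libraries in 8 of the 27 members with at least 2 transcripts tested, and between the 2 shIGF2BP3 libraries in 6. That of AGPAT2, ENST00000371696, took 65.0% and 32.4% in shCtrl and 49.8% and 51.7% in shIGF2BP3. That of MGLL, ENST00000434178, took 38.1% and 94.7% in shCtrl and 45.1% and 90.4% in shIGF2BP3. No tested transcript of AGPAT2 or MGLL was called. At gene level the median ratio between the higher and lower library was 1.18 in shCtrl and 1.14 in shIGF2BP3 over the members, beside 1.17 and 1.15 over all genes. Replicates were at least 1.5-fold apart in 6 of the 41 members tested in shCtrl (DGAT2, CEL, LPIN3, PCYT2, PEMT and AGPAT2), beside 13.5% of all genes. In shIGF2BP3 they were so in 3 members (AGPAT5, CEL and LPIN3), beside 14.5% of all genes.

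**Figure D5:**
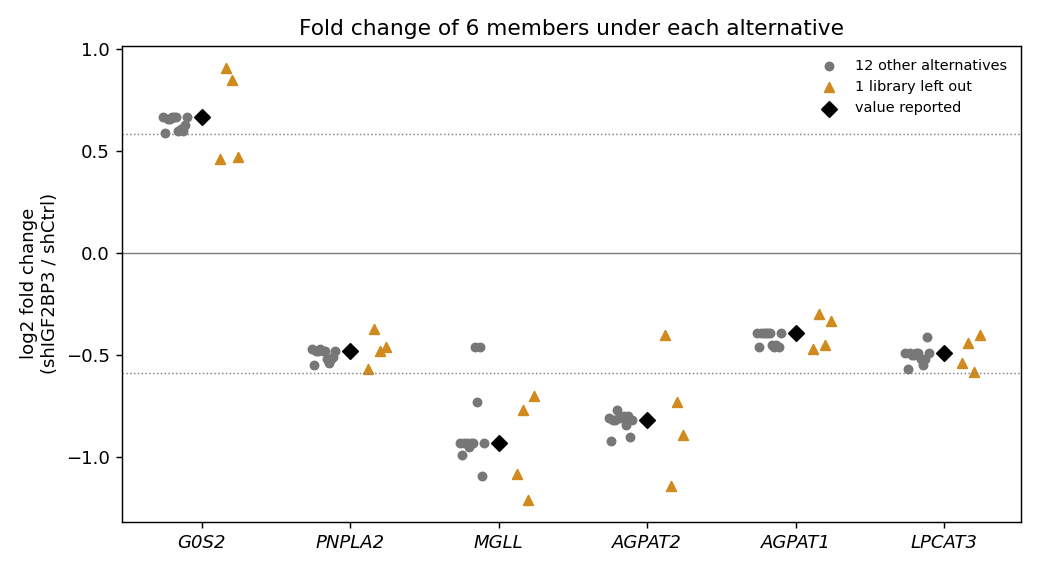
Log2 fold change (shIGF2BP3 over shCtrl) of the 6 members with p of at most 0.05, under the settings tried; the points of each gene are the value reported, the other tests and scalings, and the fits that leave out 1 library, and dotted lines mark 1.5-fold. Every point of G0S2 is above 0 and every point of the other 5 genes is below 0, with the widest range in AGPAT2 and MGLL.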

How the data were processed

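The authors deposited 1 table of estimated counts per transcript for all 4 libraries, in whole numbers, and FPKM values per transcript and library. Per the labels, reads passed through CASAVA, FastQC, Trimmomatic, HISAT2 and bedtools on GRCh38. Tool versions, counter, annotation and use of strand are not given in the sources used here. Gene IDs were given symbols by overlap with RefSeq genes of the same build (mutual best match, shared part of at least 0.5, or 0.35 for listed genes, with a lead of 0.2), and transcripts were summed per gene. The test was edgeR's quasi-likelihood test (version 4.0.16, R 4.3.3; TMM factors, filterByExpr with a minimum count of 10 and total of 15, prior count 0.125), with Benjamini-Hochberg adjustment over 13379 genes. The common biological coefficient of variation was 22.8%. An exact permutation test of 2 against 2 libraries cannot go below p = 0.333, so none was run. Alternatives used DESeq2 1.42.0 and limma 3.58.1 (on log2(FPKM + 1)). Only the steps of the quasi-likelihood test were tried on simulated counts, with a common dispersion for all genes. The replicates of each group differed beyond sampling noise. The members and lists were chosen with earlier results of these data known. Members given with all statistics were those with p of at most 0.05, the highest by FPKM in each step, and CEL; other members were singled out after their values were seen.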

Additional observations from a re-analysis of the deposited data

How the results depend on the processing

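The 6 members with p of at most 0.05 kept their direction in all 16 other fits, and no member passed an adjusted p of 0.05 in any. Excluding the fits without 1 library, the log2 fold change ran from 0.59 to 0.67 for G0S2, -0.92 to -0.77 for AGPAT2 and -1.09 to -0.46 for MGLL, and without each library in turn from 0.46 to 0.91, -1.14 to -0.40 and -1.21 to -0.70. AGPAT1, PNPLA2 and LPCAT3 kept p of at most 0.05 in 10, 13 and 13 of the 16, and IGF2BP3 ran from -0.68 to -0.36 without each library. The labels' replicate numbers differ from the files' numbers for shIGF2BP3. Deviations of libraries with the same label number were hardly correlated (0.044), but with 2 libraries per group this cannot show whether cultures were paired. With the replicate block the same 3 members were called, and 7 members in place of 6 had p of at most 0.05 (AGPAT1 lost, DGAT1 and PTDSS1 gained). No other pathway gene was called lower with it (0 in place of 2). The median log2 fold change of the members (-0.013) was -0.097 when counts were scaled by library totals alone; limma gave -0.126 on log2(FPKM + 1), -0.137 with a pseudocount of 0.1 and -0.070 without a filter, where the median of all genes was -0.081, -0.070, -0.081 and -0.026; without each library it ran from -0.075 to 0.038. Members called higher (1) were 2 in the 3 limma fits, with LPCAT2 added, and 0 with only the highest transcript of each gene or a fold change of at least 2; without each library they ran from 0 to 2, with DGAT2 called without shCtrl library 2. Members called lower (2) were 0 with limma without a filter, with the highest transcript and at a fold change of 2, and ran from 1 to 4 without each library, with AGPAT2, AGPAT5, DGAT1 and MBOAT7 called without shIGF2BP3 library 2. With limma on log2(FPKM + 1) the members called lower were AGPAT2 and PTDSS1, without MGLL. With a pseudocount of 0.1 they were AGPAT2, DGAT1 and MGLL. Members at p of at most 0.05 (6) were 10 with limma on log2(FPKM + 1) and 2 with the highest transcript. Other pathway genes called higher (2) were 1 without a count filter, with at least 10 counts in every sample, with DESeq2 and in the 3 limma fits, and 0 to 6 without each library; those called lower (2) were 0 with limma on log2(FPKM + 1), with or without the filter, and 0 to 7 without each library, the highest without shIGF2BP3 library 1, where 11.3% of all genes were called. Without each library in turn, some log2 fold changes reversed: CEL ran from -0.16 to 0.91 and CHPT1 from -0.07 to 0.36 (lowest without shIGF2BP3 library 2), DGAT2 from -0.09 to 0.85 and LPCAT4 from -0.02 to 0.35 (lowest without shCtrl library 1), and PEMT from -0.61 to 0.16 (highest without shCtrl library 2). With the highest transcript they were -0.11 for CHPT1, -0.10 for LPCAT4 and 1.26 for PEMT. The cause was not tested. A fit without 1 library assumes that the lone library of its group varies like the other group. Leaving out mitochondrially encoded genes, chosen after seeing the data, changed no call among the members.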

Other observations

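LPCAT2 differed more in FPKM than in counts. Its FPKM was 1.37 and 1.22 in shCtrl and 2.17 and 3.30 in shIGF2BP3, and its transcript ENST00000564084 took 3.73% and 8.59% of the gene's estimated count in shCtrl and 11.2% and 24.0% in shIGF2BP3. The gene's span overlaps that of CAPNS2 on the same strand, and whether the pair shares exons was not examined.

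Some other genes of the pathway were not detected in these cells. The monoacylglycerol acyltransferases MOGAT1, MOGAT2 and MOGAT3, the fatty acid transporter CD36, the droplet protein CIDEA and PCYT1B, a paralogue of PCYT1A, were listed at 0 FPKM in all 4 libraries.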
